A study of Rattus norvegicus with 12 samples.

Results

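The 10 genes described here encode repressors of muscle differentiation, or receptors and a ligand that drive such repressors, and were followed on 12 arrays of rat L6 myotubes. They are the Id genes *Id1*, *Id2*, *Id3* and *Id4*, the repressors *Hes1* and *Hey1*, the receptors *Notch1*, *Notch2* and *Notch3*, and the ligand *Jag1*. L6 cells come from rat skeletal muscle, and in culture their dividing myoblasts join into long fibres with many nuclei, the myotubes. Members were taken as the probes whose RefSeq accession, without its version, belongs to one of these 10 symbols among the 16581 genes named on the array. Each gene had 1 probe with 1 spot, so no second probe of the same gene was at hand to compare with. Of the 10 genes, 9 were tested, since *Id3* failed the filter on dim probes described below.

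All groups were L6 myotubes after 6 days of differentiation by the sample labels (the methods of the study give one day more), and all received the solvent DMSO. The control received DMSO alone. The other groups received 60 µM GR24, a synthetic strigolactone, 60 µM pinosylvin or 60 µM resveratrol for 24 h, with 3 arrays each from 3 independent experiments. Pinosylvin and resveratrol are plant stilbenes that differ by 1 hydroxyl group, which resveratrol carries and pinosylvin lacks. The arrays show levels of RNA in the whole culture, so fewer cells of a type and less RNA per cell cannot be told apart.

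Basic helix-loop-helix (bHLH) factors such as MyoD and myogenin switch on muscle genes as dimers with E proteins. Id proteins have the helix-loop-helix but no DNA-binding region, so they hold E proteins in dimers that cannot bind DNA. When a ligand such as Jag1 binds a Notch receptor, the receptor is cut and its intracellular part joins the DNA-binding protein Rbpj to turn on *Hes* and *Hey* genes, whose products repress transcription. In muscle, Notch activity and Id proteins are known for keeping precursor cells undifferentiated, and BMP signals through Smad proteins are known to raise *Id1*, *Id2* and *Id3*.

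The promoters of the 4 genes with the clearest differences are shown so that the motifs searched for can be seen in place. Each is the 250 bases before the transcription start from RefSeq on the rat assembly GRCr8, written 5′ to 3′ in the direction of the gene. *Hes1* lies on the minus strand, and its stretch is chr11:84213046-84213295, with the Rbpj motif TGGGAA in capitals.
Hes1: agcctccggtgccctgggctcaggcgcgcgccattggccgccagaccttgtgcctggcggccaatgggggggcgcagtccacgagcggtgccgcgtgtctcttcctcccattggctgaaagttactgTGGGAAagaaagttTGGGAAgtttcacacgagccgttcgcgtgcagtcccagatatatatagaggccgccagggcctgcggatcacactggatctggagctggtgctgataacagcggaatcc
*Notch1* lies on the minus strand at chr3:29721614-29721863, with the N box CACNAG, a motif that Hes proteins can bind, in capitals on either strand.
Notch1: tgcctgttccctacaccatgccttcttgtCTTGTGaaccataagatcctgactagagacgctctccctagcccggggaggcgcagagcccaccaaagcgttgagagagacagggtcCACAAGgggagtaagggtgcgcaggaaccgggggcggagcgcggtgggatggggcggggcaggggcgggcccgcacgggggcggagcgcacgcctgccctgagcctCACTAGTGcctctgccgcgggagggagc
*Id2* lies on the minus strand at chr6:47470996-47471245, with the E box CAGCTG, of the kind bound by bHLH dimers, in capitals.
Id2: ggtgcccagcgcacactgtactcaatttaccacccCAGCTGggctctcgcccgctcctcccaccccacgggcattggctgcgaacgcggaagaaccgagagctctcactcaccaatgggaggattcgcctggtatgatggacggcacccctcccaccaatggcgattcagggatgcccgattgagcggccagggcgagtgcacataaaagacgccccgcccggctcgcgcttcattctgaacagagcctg
*Id1* lies on the plus strand at chr3:161671314-161671563, with the core of the antioxidant response element, TGACNNNGC, in capitals on the opposite strand.
Id1: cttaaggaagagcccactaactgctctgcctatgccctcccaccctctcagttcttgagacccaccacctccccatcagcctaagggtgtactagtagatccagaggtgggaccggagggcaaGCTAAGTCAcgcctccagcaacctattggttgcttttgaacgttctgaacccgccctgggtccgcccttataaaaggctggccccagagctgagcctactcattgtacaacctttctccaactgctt

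These 4 motifs were searched on both strands in the 250 bases of the 9 members with a RefSeq promoter, which leaves out *Hey1*, and of 33469 rat promoters in all. TGGGAA was found in *Hes1* alone of the 9, with 2 matches that start 123 and 109 bases before the transcription start, and in 22.07% of all promoters. CACNAG was found in *Hes1*, *Notch1* and *Notch3* and in 37.17% of all promoters. *Hes1* and *Notch1* held 4 matches each, and a pair of the *Notch1* matches overlap on opposite strands in the 8 capitals CACTAGTG. TGACNNNGC was found in *Id1* alone of the 9 and in 10.08% of all promoters, and CAGCTG in *Id2* alone and in 11.97%. A match describes the letters of the window and says nothing of binding in these cells.

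Levels are given on the log2 scale after each array's 75th percentile of processed signals was subtracted, so 0 means a signal equal to that percentile. Levels of different genes come from different probes and were not compared. A difference between groups is a log2 difference with its standard error (SE), and a gene was called where limma's adjusted p over all 24279 tested probes was under 0.05. On each array 58.0% to 64.3% of the 58717 spots exceeded background clearly, and none reached saturation. Precision is limited by having 3 arrays in a group. Slide 1 held replicates 1 and 2 of all groups and slide 2 held replicate 3, so each difference called for a member is also given within each slide. All 12 myotube markers, 3 of 4 markers of undifferentiated muscle cells and all 5 fibroblast markers were well above background on every control array. The summed level of the myotube markers was 9.85 to 10.06 on the control arrays, 8.60 to 8.67 with GR24, 10.06 to 10.13 with pinosylvin and 9.60 to 9.66 with resveratrol. That of the undifferentiated muscle cell markers was 7.31 to 7.48 in the control, 6.41 to 6.57 with GR24, 6.86 to 7.01 with pinosylvin and 6.73 to 6.88 with resveratrol. That of the fibroblast markers was 6.83 to 6.94 in the control, 6.04 to 6.14 with GR24, 6.46 to 6.65 with pinosylvin and 6.42 to 6.58 with resveratrol. Both sums were thus lower on every treated array than on every control array. Each sum is log2 of the added unlogged levels of its markers, so the brightest markers weigh most. Single markers did not all follow the sums. With GR24 the fibroblast marker *Pdgfra* rose by 0.23 (adjusted p = 0.0182), *Pax7*, *Des*, *Mb* and *Chrna1* were not called, and the other tested markers of these lists fell. Of the macrophage markers, *Ptprc* was well above background on no array, and the summed level of the 4 markers was -2.57 to -1.74 in the control and -0.42 to -0.31 with GR24, where *Cd68* rose by 2.67 (adjusted p = 4.11e-07). *Csf1r*, the other macrophage marker tested, had a difference of -0.032 (adjusted p = 0.954). These levels move with the compounds beside the results below, and their part in them was not tested.

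With GR24, 5 of the 9 tested members were called, where 57.1% of all tested probes were. *Id2*, *Hes1* and *Jag1* rose (31.5% of probes did) and *Id4* and *Notch1* fell (25.5% did). The median difference of the 9 members was 0.22 and that of all tested probes 0.027. With pinosylvin 3 members were called and 16.6% of probes, *Hes1* higher (8.28% of probes were) and *Id1* and *Id2* lower (8.27% were). With resveratrol 1 member was called and 17.0% of probes, which was *Hes1*, higher (7.99% of probes were, and 8.99% were lower). The members are too few to set their share apart from that of the probes. With the replicate number as a block, 6, 4 and 2 members were called with GR24, pinosylvin and resveratrol, and 66.6%, 28.6% and 27.9% of probes. Arrays of a treated group and the control did not overlap for 61.1% of tested probes with GR24, 32.7% with pinosylvin and 33.1% with resveratrol. Of the 9 members this held for 4, 4 and 2, so a lack of overlap below is to be read against these shares.

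**Figure D1:**
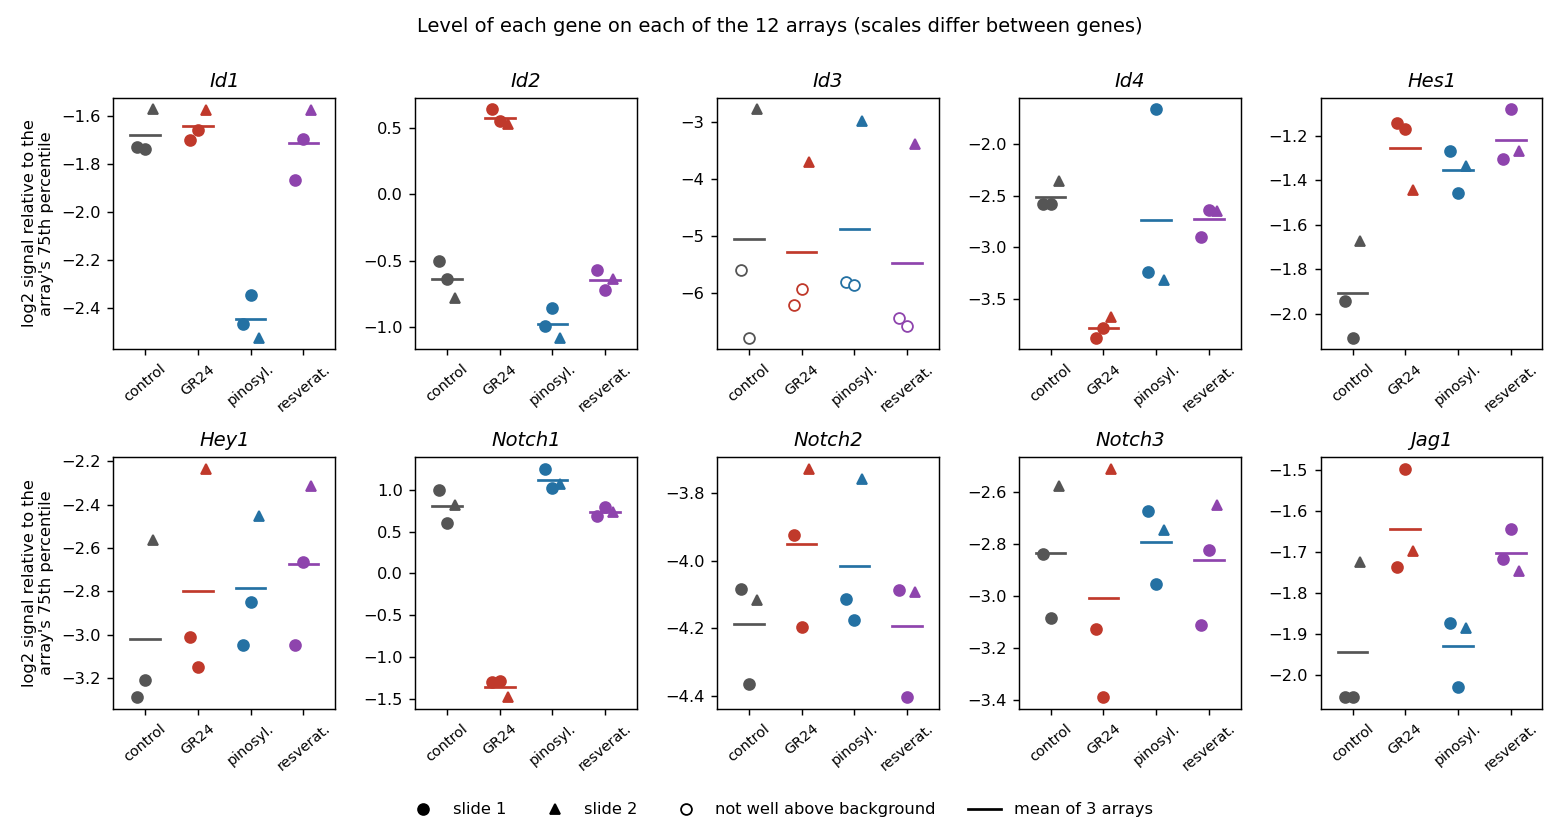
Level of each of the 10 genes on each array (log2 signal relative to the 75th percentile of the array), by treatment group, with circles for slide 1, triangles for slide 2, open symbols for spots not well above background and a line at the mean of 3 arrays. The GR24 arrays lie apart from all others for *Id2* (above), *Id4* and *Notch1* (both below), the pinosylvin arrays lie below all others for *Id1*, and the slides part the arrays of *Id3*.

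*Id2* was at -0.50, -0.63 and -0.78 on the control arrays and at 0.64, 0.55 and 0.53 on the GR24 arrays. With pinosylvin it was at -0.99, -0.85 and -1.08, and with resveratrol at -0.57, -0.72 and -0.64. The GR24 arrays were above all others, the pinosylvin arrays below all others, and the resveratrol arrays within the range of the control. *Id2* rose by 1.22 with GR24 (SE 0.088, adjusted p = 9.93e-07), which is 2.32-fold, and the difference was 1.17 on slide 1 and 1.32 on slide 2. With pinosylvin *Id2* fell by 0.33 (SE 0.088, adjusted p = 0.0267), with -0.35 on slide 1 and -0.30 on slide 2. This call was lost when control replicate 1, control replicate 2, pinosylvin replicate 1 or pinosylvin replicate 3 was left out, with an adjusted p of up to 0.0971. It was also lost without the filter on dim probes (adjusted p = 0.0952), in a fit of the 6 arrays compared (adjusted p = 0.108) and on slide 1 alone (adjusted p = 0.0522). With resveratrol the difference was -0.0016, with a 95% interval from -0.20 to 0.19.

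*Id1*, which like *Id2* encodes an inhibitor of bHLH factors, was at -1.73, -1.74 and -1.57 on the control arrays and at -2.47, -2.35 and -2.52 with pinosylvin. It was at -1.70, -1.66 and -1.58 with GR24 and at -1.87, -1.70 and -1.57 with resveratrol. The pinosylvin arrays lay below the other 9, which overlapped each other. *Id1* fell by 0.77 with pinosylvin (SE 0.089, adjusted p = 0.000226), a level 1.70-fold lower, with -0.67 on slide 1 and -0.95 on slide 2. With GR24 the difference from the control was 0.036 (95% interval -0.16 to 0.23) and with resveratrol -0.033 (95% interval -0.23 to 0.16).

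*Id4*, the fourth Id gene, was at -2.58, -2.58 and -2.35 on the control arrays and at -3.88, -3.78 and -3.68 with GR24, with no overlap. It was at -2.89, -2.64 and -2.65 with resveratrol and at -3.24, -1.66 and -3.31 with pinosylvin, where replicate 2 was the highest and the other pinosylvin arrays lay below every control array. *Id4* fell by 1.27 with GR24 (SE 0.35, adjusted p = 0.00983), a level 2.42-fold lower, with -1.25 on slide 1 and -1.32 on slide 2. After normexp background correction the decrease was smaller but called (-0.69 with the percentile and -0.63 with quantile normalization). The difference with pinosylvin was -0.23 (adjusted p = 0.74), and without pinosylvin replicate 2 it was -0.77 (adjusted p = 0.0021). With resveratrol it was -0.22 (95% interval -1.003 to 0.56). The SE of *Id4* is the largest of the 9 members, and 1 SE serves all groups of a gene in this fit.

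*Id3* was well above background on the 4 arrays of slide 2, at -2.76 in the control, -3.70 with GR24, -2.97 with pinosylvin and -3.38 with resveratrol. On the 8 arrays of slide 1 it was not well above background, at -6.78 to -5.59. The slide 2 value exceeded the slide 1 mean by 2.36 to 3.42 in each group, so *Id3* was not tested. On slide 2 there was 1 array per group and no test. The differences of *Id3* from the control there were -0.94 with GR24, -0.21 with pinosylvin and -0.62 with resveratrol. On slide 1, near background, they were 0.12, 0.36 and -0.32.

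*Hes1*, the Notch target whose promoter carries the pair of Rbpj motifs above, was at -1.94, -2.11 and -1.67 on the control arrays. It was at -1.15, -1.17 and -1.45 with GR24, at -1.27, -1.46 and -1.33 with pinosylvin and at -1.31, -1.08 and -1.27 with resveratrol. All 9 treated arrays lay above the 3 control arrays, and the treated groups overlapped each other. *Hes1* rose by 0.65 with GR24 (SE 0.12, adjusted p = 0.00103), by 0.55 with pinosylvin (adjusted p = 0.0123) and by 0.69 with resveratrol (adjusted p = 0.00371), which are 1.57-, 1.47- and 1.61-fold. The differences were 0.87, 0.66 and 0.83 on slide 1 and 0.23, 0.34 and 0.40 on slide 2, where the control array was the highest of the control group. These comparisons share the control arrays, so they are not independent.

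*Hey1*, another repressor turned on by Notch, was at -3.29 to -2.56 on the control arrays, at -3.15 to -2.23 with GR24, at -3.05 to -2.45 with pinosylvin and at -3.05 to -2.31 with resveratrol. All groups overlapped, and in each of them the slide 2 array was the highest, by 0.50 to 0.85 over the slide 1 mean. The differences from the control were 0.22 with GR24, 0.24 with pinosylvin and 0.35 with resveratrol (SE 0.29 for each), and none was called. With the replicate number as a block the resveratrol difference was called (SE 0.11, adjusted p = 0.0443).

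*Notch1*, a receptor, had the largest difference of the 9 members. It was at 1.00, 0.60 and 0.82 on the control arrays and at -1.30, -1.28 and -1.48 with GR24. With pinosylvin it was at 1.25, 1.02 and 1.07, and with resveratrol at 0.68, 0.79 and 0.73. The GR24 arrays lay below all others, the pinosylvin arrays above all others, and the resveratrol arrays within the control range. *Notch1* fell by 2.16 with GR24 (SE 0.11, adjusted p = 5.50e-08), a level 4.47-fold lower, with -2.09 on slide 1 and -2.30 on slide 2. With pinosylvin the difference was 0.31 (SE 0.11, adjusted p = 0.0756), and it was called with the replicate number as a block (adjusted p = 0.0441) and without control replicate 1 (0.41, adjusted p = 0.0351). With resveratrol it was -0.070 (95% interval -0.31 to 0.17).

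*Notch2* and *Notch3* encode receptors of the same family, and neither was called with any compound. *Notch2* was at -4.36 to -4.08 on the control arrays, at -4.20 to -3.73 with GR24, at -4.17 to -3.76 with pinosylvin and at -4.40 to -4.09 with resveratrol, and the treated groups overlapped the control. Its difference with GR24 was 0.24 (SE 0.15, adjusted p = 0.216), and it was called with the replicate number as a block (SE 0.078, adjusted p = 0.0245) and with quantile normalization (0.38, adjusted p = 0.025). It was not called with the slide as a block (adjusted p = 0.0948). *Notch3* was at -3.08 to -2.58 on the control arrays, at -3.39 to -2.51 with GR24, at -2.95 to -2.67 with pinosylvin and at -3.11 to -2.65 with resveratrol. Its differences of -0.18, 0.041 and -0.027 had intervals that reached from -0.66 to 0.52. With GR24 the interval of *Notch2* ran from -0.10 to 0.58 and that of *Notch3* from -0.66 to 0.31. A decrease as large as that of *Notch1* lay outside both intervals. *Notch2* was dim, with processed signals of 36 to 60 on the control arrays, which limits what its probe can show of a decrease.

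*Jag1*, the ligand, was at -2.05, -2.05 and -1.73 on the control arrays and at -1.74, -1.50 and -1.70 with GR24. It was at -1.87, -2.03 and -1.89 with pinosylvin and at -1.72, -1.64 and -1.75 with resveratrol. The GR24 and control arrays overlapped, because the slide 2 control array was above GR24 replicate 1. *Jag1* rose by 0.30 with GR24 (SE 0.10, adjusted p = 0.0282), with 0.44 on slide 1 and 0.027 on slide 2. This call was lost without control replicate 1, control replicate 2 or GR24 replicate 2, with an adjusted p of up to 0.11. The difference with resveratrol was 0.24 (adjusted p = 0.146), and it was called without control replicate 3 (0.35, adjusted p = 0.0265). With pinosylvin it was 0.015 (95% interval -0.21 to 0.24).

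**Figure D2:**
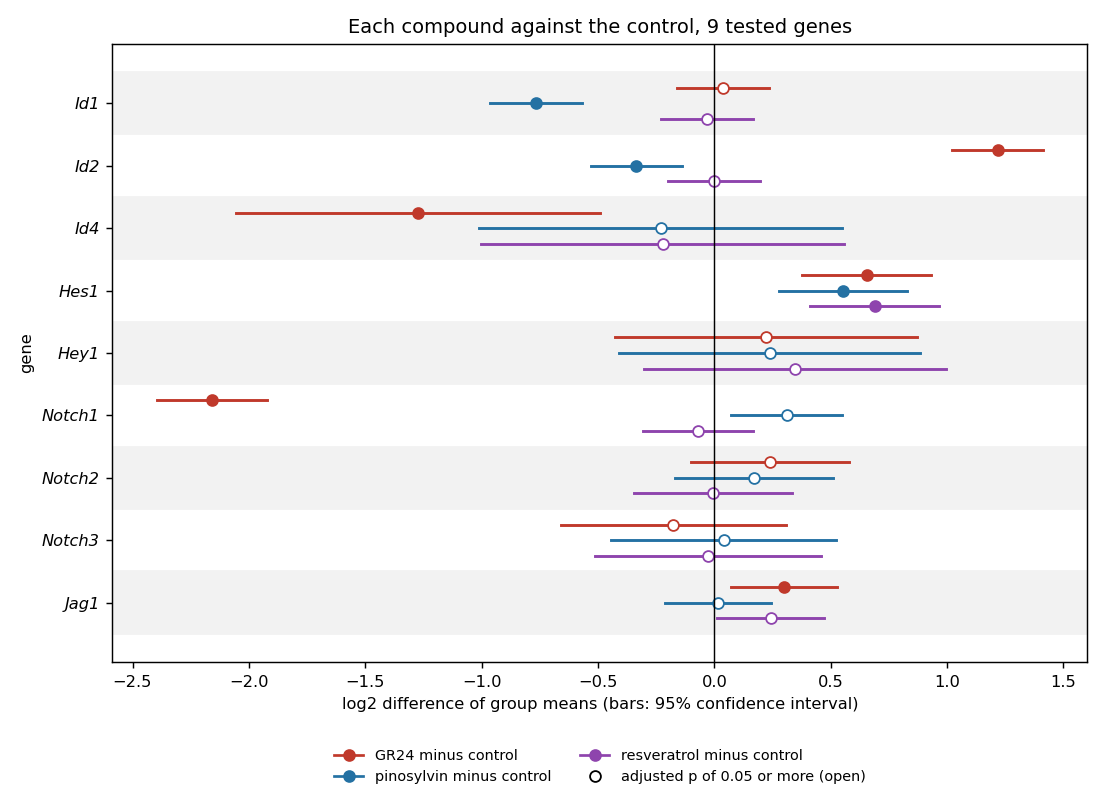
Log2 difference of each compound from the control for the 9 tested genes, with 95% confidence intervals from limma and filled symbols for an adjusted p under 0.05. *Notch1* with GR24 lies farthest from 0 at -2.16, *Id2* with GR24 at 1.22, and the 3 symbols of *Hes1* lie close together at 0.55 to 0.69.

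Between the compounds at the same dose and time, 5 members were called for GR24 against pinosylvin (56.4% of probes), 3 for GR24 against resveratrol (51.4%) and 3 for pinosylvin against resveratrol (14.5%). *Id2* was higher with GR24 by 1.55 than with pinosylvin (SE 0.088, adjusted p = 1.96e-07) and by 1.22 than with resveratrol (adjusted p = 1.43e-06), with 1.52 and 1.24 on slide 1 and 1.61 and 1.17 on slide 2. *Notch1* was lower with GR24 by 2.47 on the log2 scale than with pinosylvin (difference -2.47, SE 0.11, adjusted p = 2.76e-08), and the difference from resveratrol was -2.09 (adjusted p = 1.27e-07), with -2.43 and -2.03 on slide 1 and -2.55 and -2.21 on slide 2. *Id4* was lower with GR24 than with pinosylvin (-1.04, SE 0.35, adjusted p = 0.0269) and resveratrol (-1.05, adjusted p = 0.0282). On slide 1 these differences were -1.38 and -1.06, and on slide 2 they were -0.37 and -1.03. Without pinosylvin replicate 2, the array that stood apart, the difference from pinosylvin was -0.50 (adjusted p = 0.00425). The *Id4* calls were lost without GR24 replicate 1 or GR24 replicate 2, and that against resveratrol also without resveratrol replicate 2 or resveratrol replicate 3. Both were also lost with normexp and quantile normalization (-0.53 and -0.50), in the deposited series table (-0.71 and -0.70) and without the filter on dim probes, and that against resveratrol with normexp and the percentile (-0.48, adjusted p = 0.0995). *Id1* was higher with GR24 than with pinosylvin by 0.80 (adjusted p = 2.49e-05), with 0.73 on slide 1 and 0.95 on slide 2. *Jag1* was higher with GR24 than with pinosylvin by 0.29 (SE 0.10, adjusted p = 0.0357), with 0.33 on slide 1 and 0.19 on slide 2, a call that was lost without GR24 replicate 2 or any 1 of the pinosylvin arrays. The *Jag1* call was also lost with normexp and the percentile (0.18, adjusted p = 0.111) and with normexp and quantile normalization (0.21, adjusted p = 0.0818). In the series table with and without the slide as a block and without the filter on dim probes it was lost too.

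Pinosylvin and resveratrol, which differ by the hydroxyl group named above, differed in *Id1*, *Id2* and *Notch1*. *Id1* was lower with pinosylvin (-0.73, SE 0.089, adjusted p = 0.000453), 1.66-fold, with -0.63 on slide 1 and -0.95 on slide 2. *Id2* was lower with pinosylvin as well (-0.33, SE 0.088, adjusted p = 0.0307), with -0.28 on slide 1 and -0.44 on slide 2. This *Id2* call was lost without pinosylvin replicate 1, pinosylvin replicate 3, resveratrol replicate 1 or resveratrol replicate 3. It was also lost with normexp and the percentile, in the deposited series table, without the filter on dim probes, in a fit of the 6 arrays compared and on slide 1 alone. *Notch1* was higher with pinosylvin by 0.38 (SE 0.11, adjusted p = 0.0391), with 0.40 on slide 1 and 0.34 on slide 2. The *Notch1* call was lost without any 1 of the 6 arrays compared, without GR24 replicate 1 and without GR24 replicate 2, with an adjusted p of up to 0.127. The *Id4* difference was -0.0089 (95% interval -0.79 to 0.77) with all arrays and -0.55 (adjusted p = 0.0153) without pinosylvin replicate 2. *Hes1* was -0.13 apart (95% interval -0.41 to 0.14), and the interval of GR24 minus pinosylvin ran from -0.18 to 0.38 and that of GR24 minus resveratrol from -0.31 to 0.24. A difference in *Hes1* between compounds was thus not detected, and these intervals hold values of up to 0.41 in size.

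**Figure D3:**
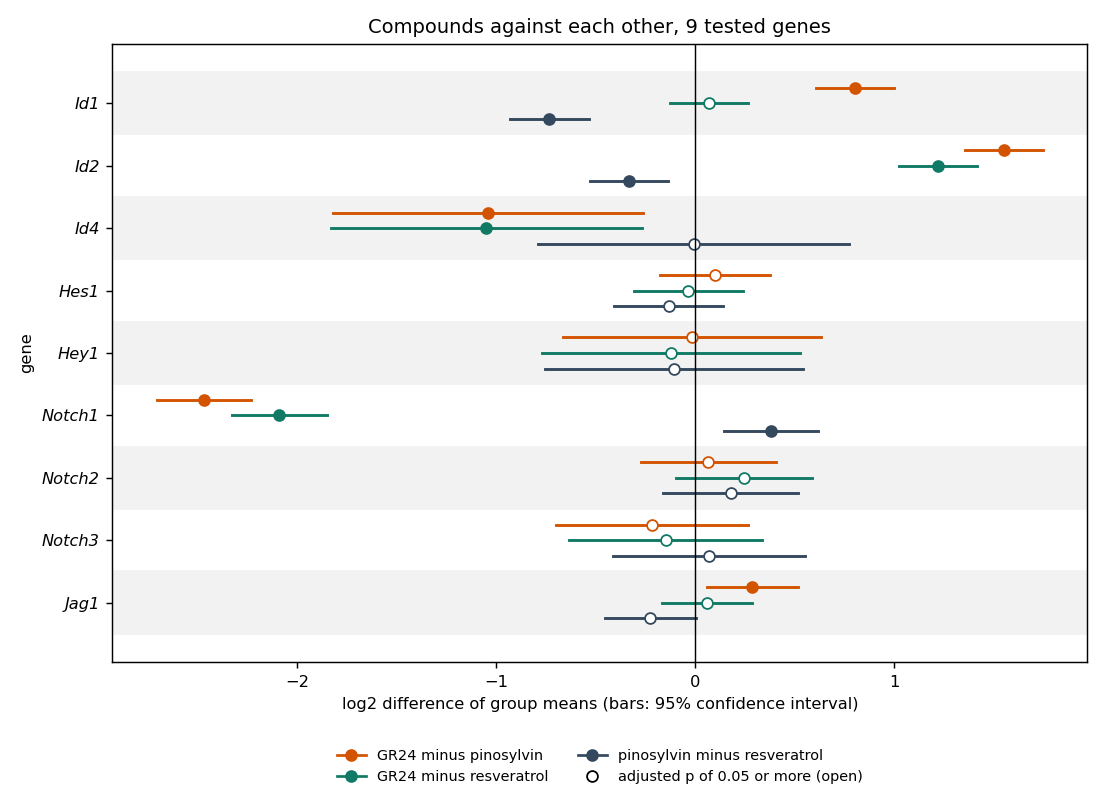
Log2 difference between compounds for the 9 tested genes, with 95% confidence intervals from limma and filled symbols for an adjusted p under 0.05. *Notch1*, *Id4* and *Id2* part GR24 from both stilbenes, and *Id1* at -0.73 parts pinosylvin from resveratrol.

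Of 87 other genes of the 2 pathways, in 6 lists, 62 were tested. With GR24, 20 of the 62 rose and 20 fell, with a median of 0.012, where 31.5% of all tested probes rose and 25.5% fell. With pinosylvin 7 rose and 4 fell (8.28% and 8.27% of probes), and with resveratrol 6 rose and 8 fell (7.99% and 8.99%). With the replicate number as a block the counts of called genes were 19 with pinosylvin and 23 with resveratrol (28.6% and 27.9% of probes). The counts of each list below are to be read against these shares. The lists were chosen with earlier results of these data known, and a gene with several probes is given by the brightest.

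Among bHLH factors that Id and Hes proteins act on, 7 of 9 tested genes fell with GR24 (25.5% of probes did) and none rose, with a median of -0.88. *Myog*, encoding myogenin, was at 5.19 ± 0.095 (SD, n = 3) in the control and at -0.64 ± 0.36 with GR24, a difference of -5.83 (adjusted p = 5.53e-10). *Myod1*, encoding MyoD, was well above background on all control arrays and on no GR24 array, and was at least 3.21-fold lower with GR24 (adjusted p = 5.46e-06). This bound takes, on each GR24 array, whichever was higher, the probe's own signal or the dimmest signal among probes well above background. After normexp background correction, which adds an offset to dim signals, the *Myod1* difference was -0.63 (adjusted p = 2.85e-05). *Myf6*, another myogenic factor, fell by 1.65, and was well above background on 2 of the 3 GR24 arrays. *Tcf4*, an E protein gene, fell by 1.29 (adjusted p = 3.73e-07) and *Myf5*, a myogenic factor of precursor cells, by 0.88 (adjusted p = 1.21e-05). The E protein gene *Tcf12* had a difference of 0.014 (adjusted p = 0.941) and *Twist2*, a bHLH repressor, 0.13 (adjusted p = 0.507). With resveratrol 5 of the 9 fell (8.99% of probes did) and none rose, among them *Myod1* (-1.11), *Myf6* (-0.76), *Myog* (-0.51) and *Tcf4* (-0.41). In the deposited series table *Myf6* with resveratrol was -0.39 and not called (adjusted p = 0.0502). With pinosylvin 2 rose and 2 fell (8.28% and 8.27% of probes), with *Myog* at 0.73 (adjusted p = 0.00654), *Tcf12* at 0.45, *Myf6* at -0.84 and *Tcf4* at -0.44. *Myog* and *Myf5* are also among the marker lists above.

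Among the other Notch ligands and receptors, 3 of 7 were tested. *Dll1*, a ligand of the Delta family, was at -2.58 ± 0.057 (SD, n = 3) in the control and at -4.48 ± 0.30 with GR24, where it was well above background on 2 of 3 arrays. It fell by 1.90 (SE 0.16, adjusted p = 2.62e-06). With pinosylvin *Dll1* rose by 0.75 (adjusted p = 0.0088), and with resveratrol the difference was -0.28 (adjusted p = 0.29). *Dll3*, a Delta-like ligand, and the receptor gene *Notch4* had differences of 1.02 (adjusted p = 0.0607) and 0.20 (adjusted p = 0.114) with GR24. *Notch1* and *Dll1* thus both fell with GR24, and *Jag1* rose.

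Among genes for the cutting, sugar modification and turnover of Notch proteins, 12 of 21 rose with GR24 and 4 fell, with a median of 0.43, where 31.5% of probes rose and 25.5% fell. *Psen2*, a catalytic subunit of gamma-secretase, rose by 1.46 (SE 0.081, adjusted p = 1.28e-07), and with resveratrol by 0.50 (adjusted p = 0.00211). *Adam17*, a protease that sheds membrane proteins, rose by 0.95 with GR24 (adjusted p = 0.000175). The ubiquitin ligase genes *Mib1* and *Neurl1*, which act on Notch ligands, rose by 0.70 (adjusted p = 8.90e-05) and 0.70 (adjusted p = 0.000901). *Itch*, a ubiquitin ligase gene, rose by 1.38 (SE 0.46, adjusted p = 0.0255), but its GR24 arrays had an SD of 0.70, and leaving out any control array or GR24 replicate 1 ended the call, with values of 0.98 to 1.42. *Adam10*, the protease that makes the first cut of the bound receptor, had a difference of 0.28 (adjusted p = 0.06) and *Aph1a*, a gamma-secretase subunit, 0.33 (adjusted p = 0.0566). With pinosylvin 1 of the 21 rose and 1 fell, and with resveratrol 1 rose.

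In the nuclear complex, 2 of 5 tested genes rose with GR24 and none fell. Among them was *Kat2a*, a histone acetyltransferase gene, which rose by 0.86 (adjusted p = 0.000429). *Rbpj*, the DNA-binding partner of Notch, had a difference of -0.078 (adjusted p = 0.596), and its second probe had 0.14. *Snw1*, a coactivator gene of the complex, had 0.23 (adjusted p = 0.177). Of the other Hes and Hey family genes and Notch targets, 4 of 10 were tested, and *Bhlhe40*, a bHLH repressor gene, rose with GR24 by 1.07 (SE 0.097, adjusted p = 5.37e-06) and with resveratrol by 0.57 (adjusted p = 0.00282). *Hes7* and *Nrarp*, a Notch target whose product dampens the pathway, had differences of -0.070 (adjusted p = 0.826) and 0.29 (adjusted p = 0.598) with GR24.

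Among BMP and Smad genes, which act upstream of *Id* genes, 8 of 20 fell with GR24 and 5 rose, with a median of -0.14, where 25.5% of probes fell and 31.5% rose. *Chrd* and *Fst*, encoding secreted antagonists of BMPs and activins, fell by 2.45 (SE 0.087, adjusted p = 6.15e-09) and 2.33 (SE 0.099, adjusted p = 1.95e-08). *Nog*, encoding another BMP antagonist, fell by 1.15 (adjusted p = 2.09e-05) and the ligand gene *Bmp2* by 1.26 (adjusted p = 7.87e-05). *Bambi*, encoding a decoy receptor, was at 0.42 ± 0.026 (SD, n = 3) in the control and at 2.07 ± 0.053 with GR24, a rise of 1.65 (adjusted p = 1.84e-08). *Bambi* rose with resveratrol by 1.01 (adjusted p = 1.34e-05) and with pinosylvin by 0.33 (adjusted p = 0.00865). *Fst* and *Chrd* also fell with resveratrol, by 1.15 (adjusted p = 4.93e-05) and 0.72 (adjusted p = 0.000345), and had differences of -0.17 and 0.044 with pinosylvin that were not called. *Smad5*, a BMP signal carrier, and the ligand gene *Bmp5* had differences of 0.24 (adjusted p = 0.0949) and -0.38 (adjusted p = 0.376) with GR24.

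**Figure D4:**
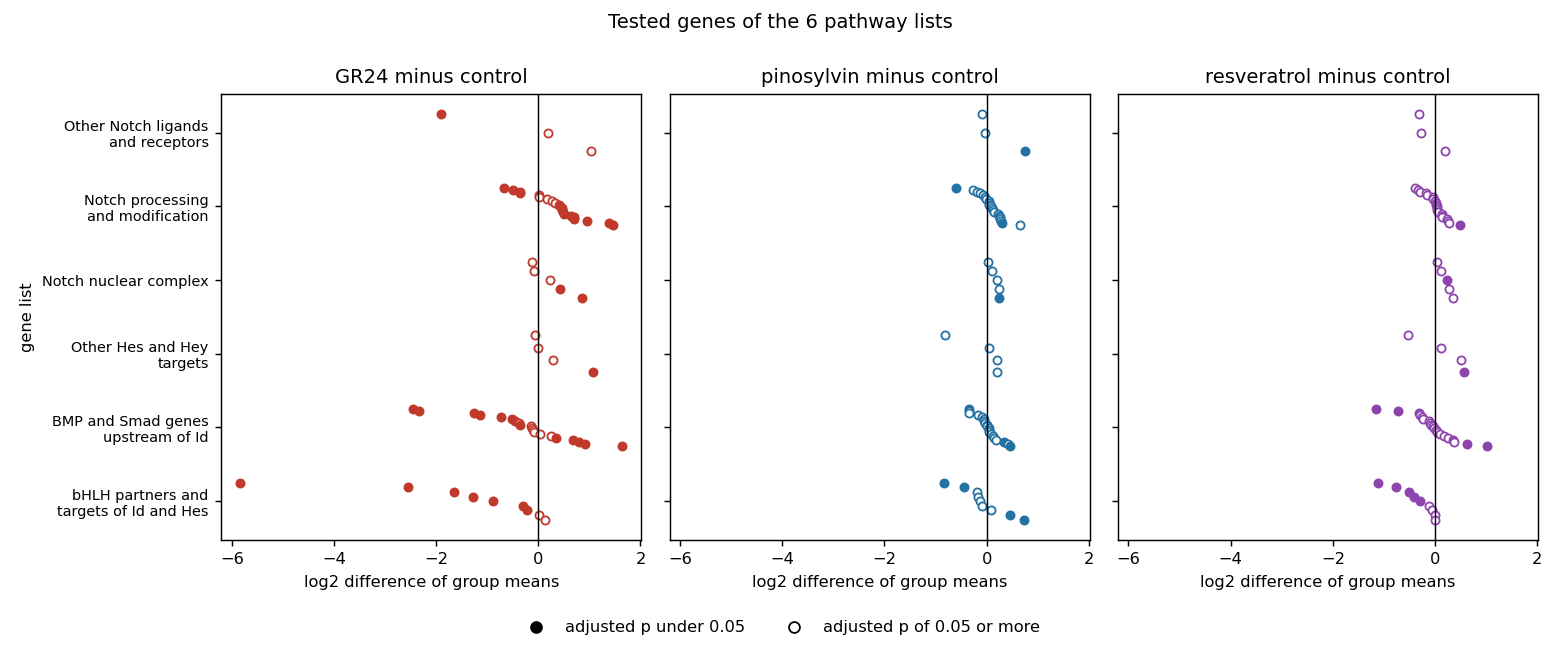
Log2 difference from the control of each tested gene of the 6 pathway lists, 1 panel per compound, with filled symbols for an adjusted p under 0.05. With GR24 the bHLH list lies mostly below 0, with *Myog* at -5.83, and most genes of Notch processing lie above 0, while the stilbene panels lie closer to 0.

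The genes whose 12 values were most like those of *Id4* and *Notch1* were looked up among 10736 named genes. Likeness is the root mean square difference of the values on the 12 arrays after subtraction of the control mean. For *Notch1* the nearest were *Katnbl1* (0.13), *Akap5* (0.15) and *Ctxn3* (0.15), with differences of -2.02, -1.98 and -2.28 with GR24. For *Id4* they were *Cpm* (0.33), *Inhba* (0.33) and *Prag1* (0.34), with -1.13, -1.32 and -1.32. The *Id4* distances exceed those of *Notch1*, and the *Id4* pattern holds the pinosylvin array that stood apart.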

How the data were processed

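The authors deposited the scanner output of 12 Agilent 1-colour arrays made with Feature Extraction 12.0.0.7, whose processed signal is an intensity from which background had been subtracted, and a series table of normalized log2 values, whose normalization is not given in the sources used here. That table followed log2 of the median signal (r 0.9994 to 0.9997) and was an alternative. Its values differed from the quantile-normalized log2 median signal by a median of 0.0088 to 0.011 on each array. Here, log2 was taken, outlier-marked spots were left out, the log2 values of a probe's spots were averaged and each array's 75th percentile over its probes was subtracted. The 24279 probes that every array of some group showed well above background were tested with limma 3.58.1 in R 4.3.3, with 1 mean per group over 12 arrays, eBayes and Benjamini-Hochberg adjustment at 0.05, the tool that the methods of the study name. The fit was tested on simulated data. Names came from the RefSeq genes of GRCr8, which named 21109 of 45598 probes; coordinates of the array's own build were not used. From each list the text names up to 5 called genes with the largest difference with GR24 and up to 2 not called, and a few of these genes are not reported here. The members, lists and tests were chosen with earlier results of these data known.

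Same-numbered samples of different groups deviated together (r 0.19 to 0.74 in all 18 pairs). Within numbers 1 and 2, which share slide 1, r was 0.19 to 0.47. Samples of the other number on the same slide had 0.22 to 0.48, with a median of 0.28 against 0.38 within numbers 1 and 2. The ranges overlap, and a pairing by number beyond the slide was not tested. Replicate 3 is slide 2, so experiment and slide cannot be told apart for it. The main fit had no block, and the replicate number was a block in an alternative fit. p-values measure the spread between the 3 experiments. Alternatives were other scalings, normexp (offset 50, on the median signal, since no mean signal column was used), the series table, other filters, blocks and fits, and leaving out each array.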

Additional observations from a re-analysis of the deposited data

Results flagged for a closer look

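The differences below stood out because both compounds differed from the control in opposite directions and from each other. *Id2* rose with GR24 and fell with pinosylvin, a difference of 1.55 between them (SE 0.088, adjusted p = 1.96e-07). The *Id2* decrease with pinosylvin lost its call in the settings given above. *Dll1* fell with GR24 and rose with pinosylvin (-2.66, SE 0.16, adjusted p = 2.66e-07), as did *Dtx3*, encoding a Deltex family ubiquitin ligase (-0.50 and 0.30, difference -0.80, adjusted p = 2.89e-05). The *Dtx3* rise with pinosylvin lost its call when any 1 array was left out other than control replicate 1, GR24 replicate 1 or pinosylvin replicate 3. The *Dtx3* call was also lost with normexp and the percentile, in the deposited series table and without the filter on dim probes (adjusted p = 0.146). A fit of the 6 arrays compared (adjusted p = 0.133) and slide 1 alone (adjusted p = 0.0634) lost it too. *Myog* fell with GR24 and rose with pinosylvin (-6.56, SE 0.15, adjusted p = 4.24e-10), and the level with pinosylvin was 1.24 above that with resveratrol (adjusted p = 0.000375). The decrease of *Myog* with resveratrol (-0.51, adjusted p = 0.0375) lost its call without any 1 of control replicates 1 and 2, the pinosylvin arrays or the resveratrol arrays, with an adjusted p of up to 0.108. That call was also lost without the filter on dim probes (adjusted p = 0.101) and on slide 1 alone (adjusted p = 0.119). On slide 1 alone the rises of *Dll1* and *Myog* with pinosylvin were not called either (adjusted p = 0.0743 and 0.0768). *Grem1*, encoding a secreted BMP antagonist, was lower with pinosylvin (-0.35, adjusted p = 0.00746) and higher with resveratrol (0.35, adjusted p = 0.008), a difference of -0.70 between them (SE 0.072, adjusted p = 0.000162). The second probe of *Grem1* had -0.51 and 0.38, neither called, and a called difference of -0.89 (adjusted p = 0.00504). The groups of 3 arrays are too small for the test of single outlying arrays, so pinosylvin replicate 2 of *Id4* is given with its value in the report alone.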

How the results depend on the processing

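Across 27 other settings, 44 results on members kept their direction and their side of the threshold in 1061 cases. They lost a call in 62, gained one in 15 and changed sign in 50. The 37 results on named pathway genes kept both in 958 cases and lost the call in 34. Those on *Myod1*, *Myf6* and *Dll1* had values in 14 of the 15 settings other than leaving out an array. The calls of *Id2*, *Hes1* and *Notch1* with GR24, of *Id1* and *Hes1* with pinosylvin and of *Hes1* with resveratrol were kept in every setting. *Id4* with GR24 lost its call on slide 1 alone (-1.25, adjusted p = 0.055), and *Jag1* with GR24 in 5 settings beside single arrays. The values that changed sign were not called in either setting. The settings slide 1 alone, the series table with the slide as a block and the percentile over spots were added after seeing the data. Averaging all probes of a gene was not run, since each member has 1 probe. What caused each change was not tested. The median of all tested probes with GR24 moved from 0.027 to 0.13 with the percentile over spots. Signals near background limit *Id3*. Differences of dim genes were over 1.5 times smaller after normexp with the percentile, with the calls kept: with GR24 *Myod1* was -0.63, *Myf6* -0.64, *Dll1* -0.91, *Nog* -0.53 and *Itch* 0.81, with resveratrol *Myod1* was -0.40 and *Myf6* -0.38, with pinosylvin *Myf6* was -0.32 and *Dll1* 0.47, and *Id1* was 0.50 for GR24 minus pinosylvin and -0.47 for pinosylvin minus resveratrol. After normexp with the percentile *Id4* for GR24 minus resveratrol (-0.48) and *Jag1* for GR24 minus pinosylvin (0.18) shrank as much and lost their calls. In the series table *Myod1* was -1.06, *Myf6* -0.85, *Dll1* -1.24 and *Nog* -0.71 with GR24, all called.

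*Id1* with GR24 was -0.022 with normexp and the 75th percentile, -0.011 with normexp and quantile normalization and -0.011 in the series table with and without the slide as a block. *Notch2* with resveratrol was 0.14 with quantile normalization, 0.044 with normexp and quantile normalization and 0.082 in the series table with and without the block, and *Notch3* 0.055, 0.025 and 0.036. *Jag1* with pinosylvin was -0.0018 with quantile normalization and -0.0029 with the percentile over probes above background on all arrays. *Id4* with pinosylvin was 0.13 on slide 1 alone, and against resveratrol 0.32 there, 0.011 with the percentile over spots, 0.0095 in the series table with and without the block, 0.11 with normexp and 0.032 with normexp and quantile normalization. *Hes1*, GR24 minus resveratrol, was 0.076 with the percentile over spots and 0.036 on slide 1 alone.

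Members called for GR24 against pinosylvin were 3 with normexp and quantile normalization, without the dim filter and in the series table with and without the block, and those for pinosylvin against resveratrol 1 without the dim filter, in the series table and on slide 1 alone. With resveratrol 2 members were called with the slide or the replicate number as a block and in the series table with the block, where *Hey1* joined *Hes1*. Probes called with pinosylvin, resveratrol and pinosylvin against resveratrol were 6947, 6769 and 6323 with the replicate block, 7074, 6869 and 6443 with the slide block, 6276, 6358 and 5572 in the series table with the block and 2409, 2680 and 1975 without the dim filter, and with pinosylvin 2479 in the fit of the 6 arrays compared. The replicate block added calls of *Notch2* for GR24 against the control and against resveratrol (0.24, adjusted p = 0.024), of *Notch1* with pinosylvin and of *Hey1* with resveratrol, and changed no other call of a member.

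Leaving out 1 array gave 2 to 4 members with pinosylvin, 1 to 2 with resveratrol, 3 to 6 for GR24 against pinosylvin and 1 to 3 for pinosylvin against resveratrol, with 2148 to 3683 probes in the last. It also called *Notch3* lower with GR24 than with pinosylvin without GR24 replicate 3 (-0.47, adjusted p = 0.0481). Values whose sign turned ranged from -0.061 to 0.45 for *Hey1* and -0.43 to 0.015 for *Notch3* with GR24, and with pinosylvin from -0.77 to 0.057 for *Id4*, -0.084 to 0.17 for *Notch3* and -0.040 to 0.12 for *Jag1*. With resveratrol they ranged from -0.10 to 0.045 for *Id1*, -0.073 to 0.067 for *Id2*, -0.17 to 0.026 for *Notch1*, -0.094 to 0.099 for *Notch2* and -0.15 to 0.10 for *Notch3*. *Hes1*, GR24 minus resveratrol, ranged from -0.089 to 0.062 and *Id4*, pinosylvin minus resveratrol, from -0.55 to 0.28.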
